A study of Sus scrofa with 8 samples.

Results

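Neutrophils kill microbes with peptides and enzymes that they store in granules. Cathelicidins, the group to which the porcine protegrins, PR39 and the PMAP peptides belong, are kept there as inactive precursors and are cut to the active peptide after release. MMP9, also called gelatinase B, is a metalloproteinase that degrades denatured collagen and basement membrane and is held in gelatinase granules, which form later in neutrophil maturation than the granules that hold cathelicidins. Transcripts of granule proteins are made mostly by maturing cells of the bone marrow. MMP9 is also made by monocytes and other blood cells.

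The genes described here are 2 cathelicidins, NPG4 and PMAP-36, and MMP9, out of 2389 genes with a matched symbol. They were chosen by the difference of their mean signal between pregnant and non-pregnant sows in these same arrays, so that difference is given as a description and without a test. Every probe whose RefSeq transcript belongs to 1 of the 3 genes was used: 3 probes for NPG4, 1 for PMAP-36 and 2 for MMP9, which makes 6 of 43603 probes on the array. All 6 passed the filter on dim signal, which asks for detection in every sow of either group. The PMAP-36 probe passed through the pregnant group alone, in which its mean was higher. In the name table (Sscrofa11.1 assembly, used for names and gene order only) NPG4 and PMAP-36 lie on chromosome 13 with PR39, PMAP-23 and NPG1 between them, and MMP9 lies on chromosome 17. The table gives PMAP37 as another name of the NPG4 record, and cathelicidin genes resemble each other closely in their shared 5′ part. How far other cathelicidin transcripts bind to these probes was not tested, because probe sequences were not used here.

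Whole blood was taken from the submandibular vein of 8 Sus scrofa females of the fifth parity, 14 days after insemination, 4 of them pregnant and 4 not pregnant. Breed, age and blood cell counts are not given in the sources used here. All sows had been inseminated, so the comparison is of pregnancy with its absence at the same interval. According to the series description, 3 of the pairs of sows were half-sibs and 1 was unrelated, and the labels do not say which sows form a pair. Each sow was measured on 1 single-colour Agilent array, and the spread within a group therefore holds differences between animals as well as between arrays. A value is called relative signal here: log2 of the spot's processed signal minus the 75th percentile of its array. It compares arrays for 1 probe and does not rank genes by abundance.

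The arrays lay on 2 slides: slide 1 carried replicates 1 and 3 of either group, and slide 2 carried replicates 2 and 4. Pregnant replicate 2 stood apart from the other 7 arrays. Its 75th percentile signal was 142, against 175 to 296 on the others, and the lowest correlation between any pair of arrays was 0.870 with it and 0.946 without it. It held the highest value in 26.4% of the 1817 genes measured and the lowest in 30.5%, so each result that rests on it is also given without it. Markers of the cell types of blood were measured: 8 of T cells, 6 of monocytes, 5 of platelets and 20 neutrophil genes besides MMP9. The neutrophil Fc receptor FCGR3A read 6.45 to 7.62 and the lysozyme gene LYZ 3.85 to 5.46 over the 8 arrays. Of the azurophil granule enzymes and proteins, 2 of 11 listed genes had a matched probe and 1 was measured.

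NPG4, at its brightest probe, lay within 2.00-fold in 7 of the 8 sows and was high in the remaining sow, a pregnant one. Protegrins are short peptides that form pores in bacterial membranes. The relative signal was 0.55, 3.07, 1.16 and 0.16 in pregnant replicates 1 to 4, against 0.34, 0.36, 0.17 and 0.16 in non-pregnant replicates 1 to 4. Pregnant replicate 2 was 3.75-fold above the next highest array, and pregnant replicate 4 was level with the lowest non-pregnant sow. The groups overlapped.

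The other NPG4 probes gave the same peak. The second probe read 0.49, 3.12, 0.51 and 0.21 in pregnant sows, against 0.27, 0.35, 0.49 and 0.22 in non-pregnant sows. The third read 0.09, 2.84, 0.95 and -0.72 in pregnant sows, against 0.31, 1.20, 0.44 and 0.51 in non-pregnant sows. All 3 probes placed pregnant replicate 2 highest, and it was also highest before any scaling, at a processed signal of 1192 against 196 to 519 on the other arrays at the brightest probe. Below that peak the probes ordered the sows differently. Over 8 arrays they correlated at r = 0.855 to 0.961, and without pregnant replicate 2 at r = 0.401 to 0.616, values given as a description of probes that share a target and arrays.

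As a group mean, NPG4 stood at 1.23 ± 1.29 in pregnant sows and 0.25 ± 0.11 in non-pregnant sows at its brightest probe (SD, n = 4 each). The log2 fold change was 0.98 (standard error 0.54), or 1.97-fold. It was 0.75 at the second probe and 0.18 at the third. Leaving out pregnant replicate 2, the 3 probes gave 0.37, 0.071 and -0.51, so that the third changed sign. The spread within the pregnant group was larger than the difference between the groups.

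PMAP-36 encodes a cathelicidin with a helical mature peptide that permeabilises bacterial membranes. Its relative signal was -3.90, -1.18, -2.73 and -2.66 in pregnant replicates 1 to 4, against -4.34, -2.44, -3.16 and -3.61 in non-pregnant replicates 1 to 4. Pregnant replicate 2 was again the highest of the 8 sows, 2.40-fold above the next, which was non-pregnant replicate 2. Before scaling the gap was smaller, at processed signals of 63 and 46. The 75th percentiles subtracted from these arrays were 142 and 249, so much of the 2.40-fold comes from the scaling. The groups overlapped, and a single pregnant sow lay above all non-pregnant sows (1 of 4).

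The group means of PMAP-36 were -2.62 ± 1.12 in pregnant sows and -3.39 ± 0.79 in non-pregnant sows (SD, n = 4 each), a log2 fold change of 0.77 (standard error 0.57), or 1.70-fold. The probe was dim, with processed signals of 20, 63, 35 and 35 in pregnant sows against 11, 46, 24 and 14 in non-pregnant sows. Detection above background held for 4 of 4 pregnant sows and 3 of 4 non-pregnant sows, the exception being non-pregnant replicate 1. The log2 fold change was 0.29 without pregnant replicate 2, 0.45 without non-pregnant replicate 1 and 0.13 with normexp background correction.

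**Figure D1:**
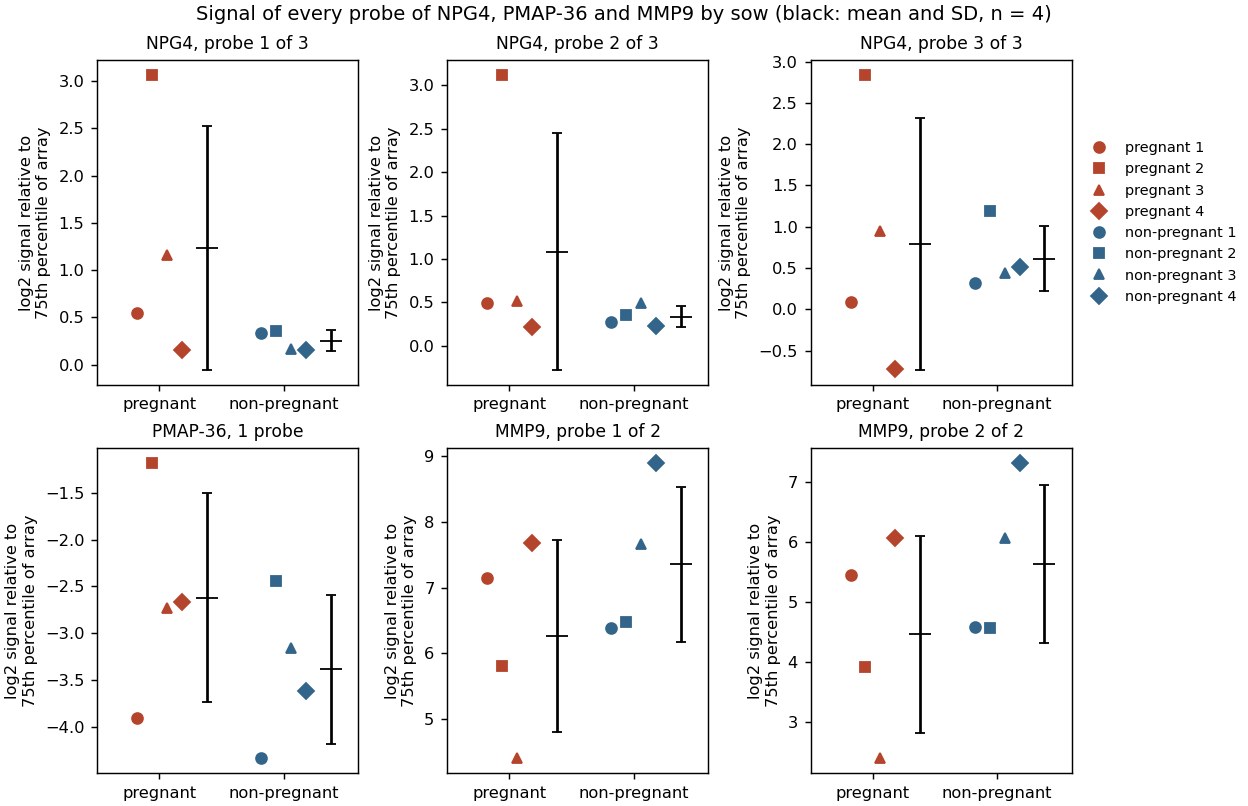
Each panel plots 1 probe: the y axis is log2 signal relative to the 75th percentile of the array, points are sows (marker shape gives the replicate), and black marks show the group mean with its SD (n = 4). In all 3 NPG4 panels and the PMAP-36 panel pregnant replicate 2 is the highest point, while in both MMP9 panels the sows are spread widely in each group and pregnant replicate 3 is the lowest point.

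Of the other cathelicidins listed, PR39 and PMAP-23 had a probe matched to them. PR39, a proline- and arginine-rich cathelicidin, did not share the peak: its relative signal was -3.01, -3.02, -3.39 and -4.09 in pregnant sows, against -3.71, -2.43, -3.10 and -2.93 in non-pregnant sows. Its log2 fold change was -0.34 (standard error 0.35), and non-pregnant replicate 2 was its highest sow. PMAP-23 was well above background on 1 pregnant array and 2 non-pregnant arrays and did not pass the filter. The pregnant array on which it was detected was replicate 2, at -2.67 against -4.25 on the next highest array, non-pregnant replicate 2. Before scaling, the processed signals of PMAP-23 on these arrays were 22 and 13. NPG4, PMAP-36 and PMAP-23 thus had their highest reading in the same sow, and PR39 had not. That sow was also the highest in 26.4% of all 1817 genes. NPG4 and PMAP-36 were chosen by a contrast that holds it, so nothing is read from the shared peak.

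MMP9 varied widely among the sows of either group. At its brightest probe the relative signal was 7.14, 5.82, 4.40 and 7.68 in pregnant replicates 1 to 4, against 6.38, 6.48, 7.66 and 8.90 in non-pregnant replicates 1 to 4. The highest sow, non-pregnant replicate 4, was 22.5-fold above the lowest, pregnant replicate 3. Pregnant replicate 1 lay above 2 of the non-pregnant sows and pregnant replicate 4 above 3 of them, so the groups overlapped.

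The second MMP9 probe read 5.46, 3.92, 2.41 and 6.07 in pregnant sows, against 4.59, 4.57, 6.06 and 7.32 in non-pregnant sows. Its range was 30.1-fold. Both probes followed each other closely, at r = 0.999 over the 8 arrays, and put the same sows at the top and the bottom. Across all kept probes, 96.7% and 97.9% had a smaller SD over the 8 arrays than the brighter and the dimmer MMP9 probe (1.36 and 1.52). Those shares were 98.8% and 99.3% when pregnant replicate 2 was left out. For the NPG4 probes the share with a smaller SD was 89.9% to 91.3% over 8 arrays, and 1.09% to 79.7% without pregnant replicate 2. These SDs pool both groups and so hold the group difference by which the genes were chosen. The shares are a description, and nothing is read from them.

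The MMP9 group means were 6.26 ± 1.46 in pregnant sows and 7.35 ± 1.18 in non-pregnant sows (SD, n = 4 each). The log2 fold change was -1.09 (standard error 0.76), so the pregnant mean was 0.469 times the non-pregnant mean, and -1.17 at the second probe. It rested mostly on the lowest and the highest sow: leaving out pregnant replicate 3 gave -0.47, and leaving out non-pregnant replicate 4 gave -0.58. With array weights, which gave pregnant replicate 3 a weight of 5.15 against 0.337 to 1.80 on the other arrays, it was -2.20. In bulk blood, fewer cells that carry a transcript and less transcript per cell cannot be told apart, and this holds for all genes here.

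**Figure D2:**
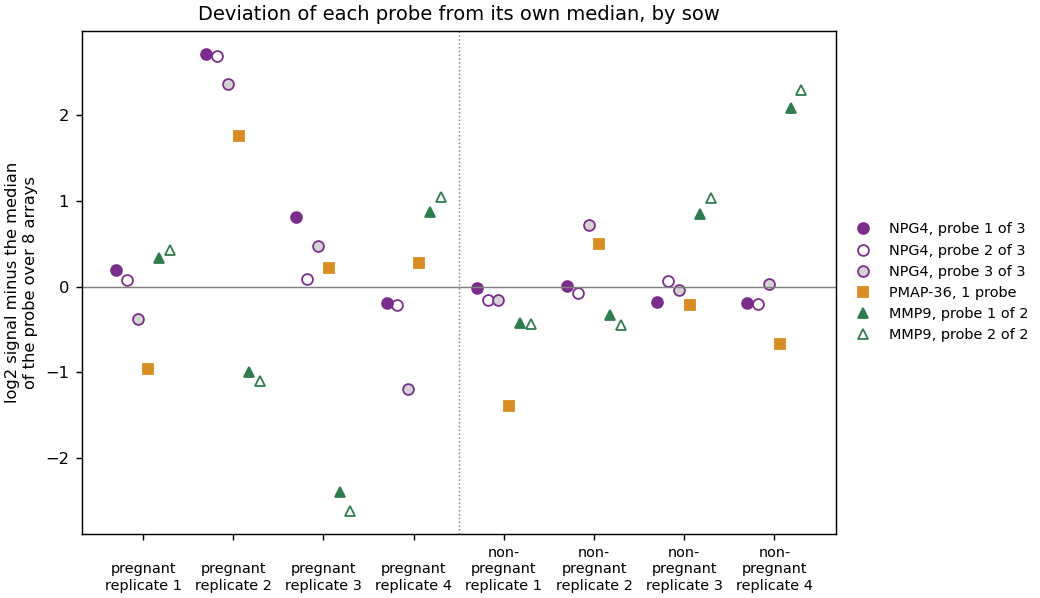
The y axis is the log2 relative signal of each probe minus that probe's median over the 8 arrays, and the x axis lists the sows, pregnant on the left. NPG4 (circles) and PMAP-36 (squares) are highest in pregnant replicate 2 and NPG4 is close to 0 in most other sows, whereas both MMP9 probes (triangles) are lowest in pregnant replicate 3 and highest in non-pregnant replicate 4.

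As background to these differences, limma with Benjamini-Hochberg adjustment called 0 of 26481 probes (0%) between pregnant and non-pregnant sows (smallest adjusted p = 0.530). An unadjusted limma p under 0.05 was reached by 607 of the 26481 probes, a smaller share than that threshold gives by chance. The groups did not overlap in 1.58% of probes and in 1.43% of genes at their brightest probe, and in 0 of the 6 probes of NPG4, PMAP-36 and MMP9. Since the contrast chose these genes, nothing is read from that count.

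Within each slide, the direction of the 3 brightest probes was that of the whole set. NPG4 had a log2 fold change of 0.60 on slide 1 and 1.35 on slide 2, where pregnant replicate 2 lay. PMAP-36 had 0.43 on slide 1 and 1.11 on slide 2. MMP9 had -1.25 on slide 1, where pregnant replicate 3 lay, and -0.94 on slide 2. Whether the effect differed between slides was not tested; each slide held 2 sows of each group.

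**Figure D3:**
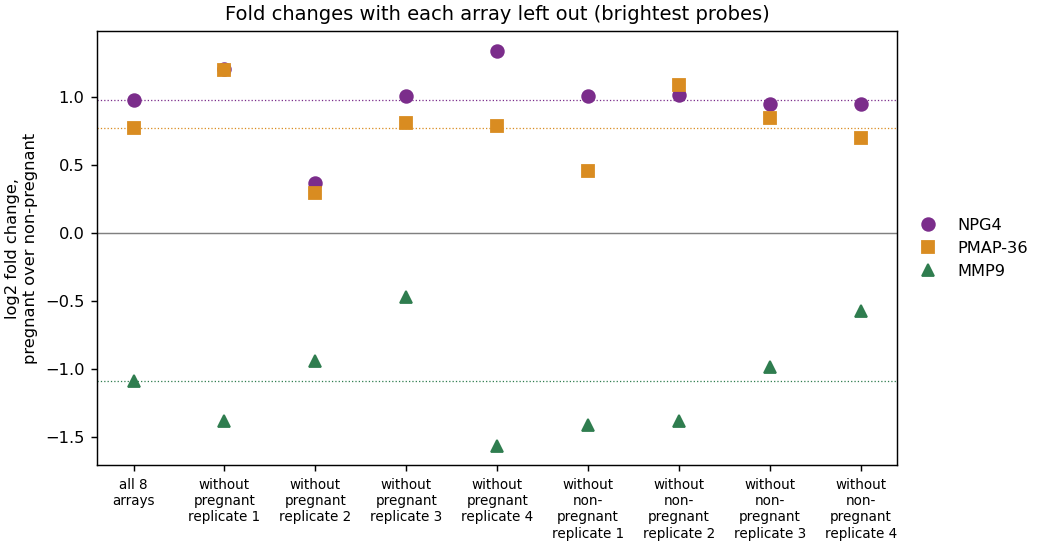
The y axis is the log2 fold change, pregnant over non-pregnant, at the brightest probe of NPG4, PMAP-36 and MMP9; the x axis names the array left out, with all 8 arrays at the left and dotted lines at those values. Leaving out pregnant replicate 2 brings NPG4 to 0.37 and PMAP-36 to 0.29, and leaving out pregnant replicate 3 brings MMP9 to -0.47, while no single array turns a sign.

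Whether peptide and gelatinase transcripts moved together or apart was examined across the 8 sows, with 6 relations computed and exact two-sided permutation tests over all 40320 pairings. These correlations hold the group difference that chose the genes, and a p over all pairings takes no account of that choice, so nothing is called from it. Each relation was also tested with group means subtracted, by exact permutation within groups. That step does not undo the choice. The contrast leaned on pregnant replicates 2 and 3 and non-pregnant replicate 4, whose deviations stay in the subtracted values. For NPG4 and MMP9, Spearman's rho over the 8 sows was -0.881 (exact permutation p = 0.00724, adjusted p = 0.0435) and Pearson's r was -0.557 (exact permutation p = 0.189, adjusted p = 0.305). With group means subtracted, rho was -0.690 (exact permutation p = 0.0868, adjusted p = 0.444) and r was -0.432 (exact permutation p = 0.451, adjusted p = 0.558), so the opposite order was not called within groups. At the brightest NPG4 probe, pregnant replicates 2 and 3 had the 2 highest values, and they had the 2 lowest MMP9 values. Non-pregnant replicate 4, the highest in MMP9, was nearly level there (0.156) with pregnant replicate 4 (0.159) and non-pregnant replicate 3 (0.166). These were the lowest NPG4 values and belonged to the sows highest in MMP9. How far rho rests on their order was not tested. At NPG4 probes 2 and 3 the lowest sow was pregnant replicate 4 (0.212 and -0.717), while non-pregnant replicate 4 read 0.222 and 0.510. At probe 3 non-pregnant replicate 2 (1.20) also lay above pregnant replicate 3 (0.946).

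The rank correlation of NPG4 and MMP9 over the 8 sows also differed by NPG4 probe. With the second NPG4 probe rho was -0.738 (exact permutation p = 0.0458, adjusted p = 0.275), and with the third it was -0.524 (exact permutation p = 0.197, adjusted p = 0.295). With the second MMP9 probe it was -0.905 (exact permutation p = 0.00456, adjusted p = 0.0274). Over the 7 arrays other than pregnant replicate 2, rho was -0.857 and r was -0.878 (exact permutation adjusted p = 0.143 and 0.0893). Without pregnant replicates 2 and 3, the arrays farthest from the NPG4 median, r was -0.613 and rho was -0.771 (exact permutation adjusted p = 0.664 and 0.308). After slide means were subtracted, rho was -0.667 (exact permutation within slides, adjusted p = 0.182). A slide holds 4 arrays, too few for a correlation of its own.

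The 2 peptides were both highest in pregnant replicate 2 and followed each other little in the other sows. NPG4 and PMAP-36 had r = 0.742 (exact permutation p = 0.0512, adjusted p = 0.154) and rho = 0.357 (exact permutation p = 0.389, adjusted p = 0.584). Over the other 7 arrays r was 0.171 and rho was 0.036 (exact permutation adjusted p = 0.824 and 0.963). Without pregnant replicates 2 and 3 both were negative, with r = -0.354 and rho = -0.143. With group means subtracted, r was 0.677 and rho was 0.548 (exact permutation adjusted p = 0.558 and 0.444).

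PMAP-36 and MMP9 had r = -0.371 and rho = -0.238 (exact permutation adjusted p = 0.362 and 0.699), and without pregnant replicate 2 r was -0.239 and rho 0.036. Without pregnant replicate 2 and non-pregnant replicate 1, the arrays farthest from the PMAP-36 median, r of PMAP-36 and MMP9 was -0.488. With group means subtracted, r was -0.235 and rho was -0.143 (exact permutation adjusted p = 0.637 and 0.826). With slide means subtracted, r was -0.716 and rho was -0.667 (exact permutation within slides, adjusted p = 0.115 and 0.182). The relation of PMAP-36 to MMP9 was thus not called under these settings.

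**Figure D4:**
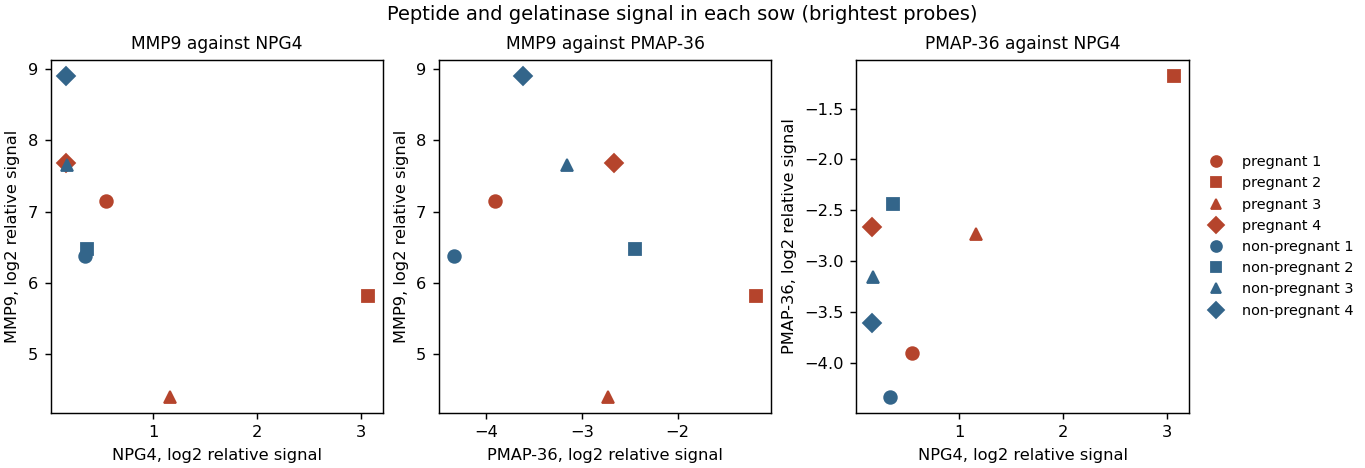
Each point is a sow (red pregnant, blue non-pregnant, shape by replicate), plotted by the log2 relative signal of the brightest probes of NPG4, PMAP-36 and MMP9. In the left panel the sows with high NPG4, pregnant replicates 2 and 3, have the lowest MMP9, and in the right panel pregnant replicate 2 alone is high in both peptides.

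The rest of the neutrophil programme was described by 53 genes of azurophil, specific and gelatinase granules, secretory vesicles and the calgranulins, of which 20 besides MMP9 were measured. Their median log2 fold change was 0.12, with 14 above 0 and 6 below, beside a median of -0.034 over all 1817 genes with 805 above 0 and 1012 below. Limma called 0 of the 20 (0 of 1817 genes, 0%). Leaving out pregnant replicate 2 gave a median of 0.052.

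Specific granules, which also hold cathelicidins, had 7 measured genes, of which 5 lay above 0 and 2 below (median log2 fold change 0.13, and -0.016 without pregnant replicate 2). The largest were CHI3L1, a chitinase-like glycoprotein, at 0.45, the iron-binding protein LTF at 0.40 and CRISP3 at 0.32. PGLYRP1, a peptidoglycan-binding antibacterial protein named here after its values were seen, had the NPG4 peak. It read 0.72, 4.50, 2.22 and -0.60 in pregnant sows, against 1.04, 2.67, 1.36 and 1.71 in non-pregnant sows, and its log2 fold change was 0.018 with pregnant replicate 2 and -0.91 without it. Of the 7 specific granule genes, 3 were highest in pregnant replicate 2, beside 26.4% of all genes. LTF, CHI3L1 and CRISP3 were not among them.

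The 3 measured gelatinase granule genes other than MMP9 all lay above 0, with a median log2 fold change of 0.40. ARG1, an arginase that human neutrophils store, had 0.66 (0.032 without pregnant replicate 2) and the lectin FCN1 0.40. ARG1 read 4.77, 7.79, 6.72 and 4.39 in pregnant sows, against 5.31, 6.46, 5.64 and 3.63 in non-pregnant sows. Its highest sows were pregnant replicates 2 and 3 and its lowest was non-pregnant replicate 4, while MMP9 was lowest in the first 2 of these and highest in the last. The other measured genes of the list, FCN1 and SLC11A1, did not share the ARG1 order. FCN1 was highest in pregnant replicate 1 (4.48) and SLC11A1 in pregnant replicate 4 (3.74). In pregnant replicate 2 they read 3.12 and 2.22.

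Of the azurophil granule list the lysosomal enzyme GUSB alone was measured, at a log2 fold change of -0.0088. Of the surface receptor list, the selectin ligand SELPLG had -0.13 and the Fc receptor FCGR3A 0.098. The calgranulins, calcium-binding proteins abundant in neutrophil cytosol, had a median of 0.12 over 4 genes, with S100A8 at 0.20, S100A9 at 0.17 and S100A11 at 0.080. S100A8 and S100A9 were highest in pregnant replicate 2, and without it their log2 fold changes were -0.012 and -0.14. S100A12 was highest in non-pregnant replicate 4 (3.73) and S100A11 in pregnant replicate 1 (4.74). Thus 2 of the 4 calgranulins were highest in pregnant replicate 2, beside 26.4% of all genes.

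Of the NADPH oxidase subunits, which make the oxidative burst, NCF1 had 0.48 and CYBA -0.061. Of the granulocyte transcription factors, CEBPB had -0.36, SPI1 0.25 and STAT3 -0.0028. Among 4 other host defence genes, LYZ had 0.65, LTF 0.40 and the iron-regulating peptide HAMP 0.29 (list median 0.35). Limma called 0 genes in these lists, as it did over all genes.

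**Figure D5:**
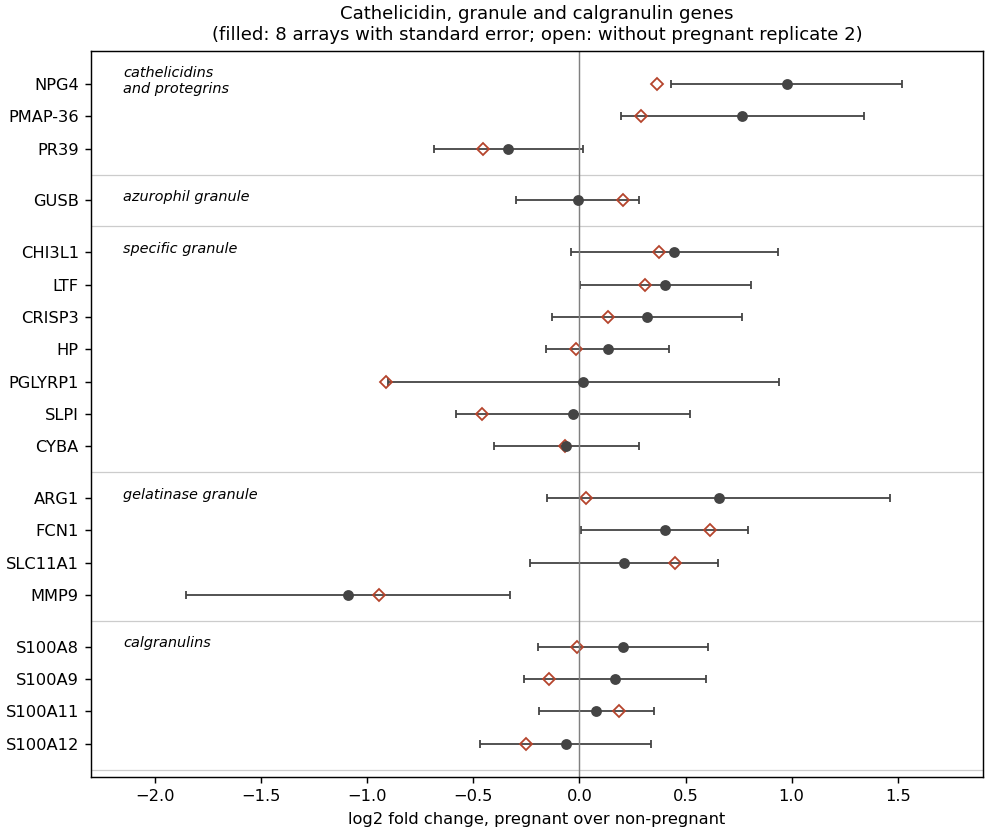
The x axis is the log2 fold change, pregnant over non-pregnant, for each measured gene of the cathelicidin, granule and calgranulin lists; filled points use 8 arrays with the standard error of the limma fit, and open diamonds leave out pregnant replicate 2. NPG4 and MMP9 are the ends of the plot at 0.98 and -1.09, and the diamonds of PGLYRP1, ARG1 and NPG4 lie well to the left of their filled points.

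Besides MMP9, 6 metalloproteinases, inhibitors and plasminogen system genes were measured, of which 5 lay above 0 and 1 below (median log2 fold change 0.20). The gelatinase MMP2 had 0.28, the membrane-bound MMP14 0.35, the inhibitors TIMP1 and TIMP2 0.026 and 0.12, and the plasminogen activator PLAU 0.42. TIMP1, which binds MMP9, read 3.45, 3.75, 3.44 and 2.78 in pregnant sows, against 2.95, 3.39, 3.22 and 3.76 in non-pregnant sows. The TIMP1 groups overlapped. Non-pregnant replicate 4 and pregnant replicate 2 were nearly level at the top (3.757 and 3.751), and in MMP9 they read 8.90 and 5.82. Pregnant replicate 4, the lowest in TIMP1, read 7.68 in MMP9.

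The mean relative signal of the other neutrophil genes was 2.74, 3.19, 2.99 and 2.50 in pregnant replicates 1 to 4, against 2.68, 2.67, 2.49 and 2.91 in non-pregnant replicates 1 to 4. The mean over all 1817 genes was also highest in pregnant replicate 2, at 1.13 against 0.79 to 0.98 on the other arrays. How far that shift of the whole array enters the correlations below was not tested. Against NPG4 the mean of the other neutrophil genes had r = 0.817 (exact permutation p = 0.00645, adjusted p = 0.0387) and rho = 0.595 (exact permutation adjusted p = 0.393). These values hold the group difference by which NPG4 was chosen. With group means subtracted, r was 0.789 and rho was 0.619 (exact permutation adjusted p = 0.333 and 0.444), so the relation was not called within groups. Over all groups, r was 0.670 without pregnant replicate 2 (exact permutation adjusted p = 0.229) and 0.250 without pregnant replicates 2 and 3 (exact permutation adjusted p = 0.683). Leaving out any single array other than non-pregnant replicate 4 brought the adjusted p of r above 0.05.

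Against MMP9 the mean of the other neutrophil genes had r = -0.458 and rho = -0.524 (exact permutation adjusted p = 0.305 and 0.393). Without pregnant replicate 3 and non-pregnant replicate 4, the arrays farthest from the MMP9 median, r was -0.842 (exact permutation adjusted p = 0.0917). PMAP-36 had r = 0.472 and rho = 0.143 (exact permutation adjusted p = 0.305 and 0.752), which turned to r = -0.102 without pregnant replicate 2. With group means subtracted, r was -0.358 for MMP9 and 0.378 for PMAP-36 (exact permutation adjusted p = 0.558 each).

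T cell markers and the eosinophil receptor CCR3 were low in pregnant replicate 2, where the peptides peaked, and their part in these results was not tested. The 8 measured T cell markers all lay below 0 (median log2 fold change -0.35, and -0.20 without pregnant replicate 2), led by CD3D at -0.60 and CD8A at -0.56. Their mean was 1.68 in pregnant replicate 2, against 2.07 to 2.49 on the other 7 arrays, and 6 of the 8 were lowest there. The 6 monocyte markers had a median of 0.45, with means of 2.02 to 2.31 in pregnant sows and 1.45 to 1.92 in non-pregnant sows, and 0 of the 6 were highest or lowest in pregnant replicate 2.

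The B cell marker CD79A had a log2 fold change of -0.34. Cytotoxic and NK cell markers (GZMB at -0.92 and GZMH at -0.71, list median -0.29) and platelet markers (SELP at -0.53 and ITGA2B at -0.32, list median -0.26) had negative medians. The eosinophil receptor CCR3 had -0.22 and the erythroid factor KLF1 -0.23, each the only measured gene of its list. CCR3 read 3.22, 2.25, 2.45 and 4.82 in pregnant sows, against 3.70, 3.50, 2.44 and 3.96 in non-pregnant sows. It was lowest in pregnant replicate 2, non-pregnant replicate 3 and pregnant replicate 3.

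Likeness to each gene was measured as Spearman's rho over the 8 arrays against the other 1816 genes, a description without a test since all values share arrays and scaling. Most like NPG4 were BIRC5, an inhibitor of apoptosis that dividing cells express (rho = 0.976), the haem-binding protein HPX (0.905), the dehydrogenase DHRS4 (0.881), BLOC1S3, a subunit of a complex that builds lysosome-related organelles (0.833), and the interleukin 4 receptor chain IL4R (0.833). Their Pearson r with NPG4, pregnant replicate 2 left out, was 0.598 to 0.816. Most opposite were the angiogenic factor VEGFA (-0.976), LOC396700 (-0.952) and the activation marker CD69 (-0.929).

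Most like MMP9 were SPATA5L1 (rho = 0.952), LOC396700 (0.929), MS4A2, a chain of the high-affinity IgE receptor of mast cells and basophils (0.929), the histamine receptor HRH4 (0.929) and the transcription factor KLF5 (0.905). Most opposite were HPX (-0.929), the glutathione peroxidase GPX2 (-0.881) and the matrix glycoprotein TNC (-0.881). HPX and LOC396700 appear for both MMP9 and NPG4, with opposite signs.

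Genes most like PMAP-36 were the transcription factor KLF16 and the serotonin receptor HTR4 (rho = 0.952 each), the adrenaline-forming enzyme PNMT, the sperm protamine PRM1 and HAMP (0.929 each). The endothelial and leukocyte adhesion molecule PECAM1, the aminopeptidase LNPEP and the interleukin 7 receptor chain IL7R were most opposite (-0.976 each). None of the 8 genes named for PMAP-36 is among those named for NPG4. The PMAP-36 probe is close to background, and how far the scaling of dim signal enters this likeness was not tested.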

How the data were processed

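Blood of 4 pregnant and 4 non-pregnant sows was measured on 1 array each. Per the file headers, version 10.7.3.1 of Agilent's Feature Extraction software (10.7 in the submitters' processing notes) produced the deposited scanner output, 1 file a sow, whose processed signal is a linear intensity. A series table with log2 values, which the authors deposited too, served as an alternative. No source used here states how it was normalized: each column has a median of 5.03 and follows its own array's log2 signal (r of 0.99895 or higher), so the direction is that of the signal, while centring and software stay unknown.

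Control spots and outlier spots were dropped, spots of 1 probe averaged on the log2 scale, and each array's 75th percentile subtracted. The filter required detection above background in every sow of either group (4 of 4) and passed 26481 of 43603 probes. No spot was saturated (0), and 61.7% to 69.2% of probes were well above background per array; the number of arrays limits the precision. A RefSeq accession matched 5461 of 5779 probes to 2389 symbols, 1817 with a kept probe. A gene is represented by its brightest kept probe. Groups were compared with limma 3.58.1 in R 4.3.3 (threshold 0.05 after Benjamini-Hochberg adjustment). Fold changes carry limma's standard error. Correlations used exact permutation tests (Python 3.11.15, pandas 2.3.3, numpy 2.4.6), and plots matplotlib 3.10.9.

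The genes, 17 lists and rules were chosen with earlier results of these data known. Named are the 3 genes of largest fold change per list (2 for other cell types), measured cathelicidins, metalloproteinases and TIMPs, and per member the 5 most like and 3 most opposite genes; some genes that this rule names are not reported here. Arrays of a group are separate sows. The normexp alternative used median spot and background signals, since the files hold no mean signal column. The use of other probes was added after the data were seen.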

Additional observations from a re-analysis of the deposited data

Results flagged for a closer look

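In groups of 4 sows, the gap of a sow to the nearest other was taken as a share of the group's range. A sow was singled out when that share passed the critical value of Dixon's test, which chance gives in about 1 of 20 groups. Of 130 groups examined, 8 were singled out. Genes such as NPG4, SPATA5L1 and LNPEP were chosen from these same arrays, and the groups share arrays. The rate of 1 in 20 need not hold for them, so nothing is read from the count of 8. The second NPG4 probe had 3.12 in pregnant replicate 2, against 0.21 to 0.51 in the other pregnant sows. In the same sow SPATA5L1, the gene most like MMP9, had -2.54, against -1.50 to -1.33. CD79A had 1.06 in pregnant replicate 1, against 0.60 to 0.65, and GZMH 2.08 in pregnant replicate 3, against 3.53 to 3.61. Among non-pregnant sows, MMP2 had -1.21 in replicate 4, against -2.39 to -2.20, and SPI1 0.0045 in replicate 4, against -0.90 to -0.77. LNPEP had 2.33 in non-pregnant replicate 2, against 2.89 to 2.99, and SELP 4.02 in non-pregnant replicate 1, against 3.03 to 3.15.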

How the results depend on the processing

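At the brightest probe the log2 fold changes kept their sign under every alternative run, and moved by less than the SD of the pregnant sows; for NPG4 that SD is far above the non-pregnant one (1.29 and 0.11). The third NPG4 probe gave 0.18, and -0.51 without pregnant replicate 2. With 1 array left out NPG4 ranged from 0.37 to 1.34, PMAP-36 from 0.29 to 1.20 and MMP9 from -1.57 to -0.47; normexp gave 0.56, 0.13 and -0.99. Limma called 0 probes in all 20 alternatives. Same-numbered sows correlated in their deviations at 0.218, 0.481, 0.434 and -0.117, so the number was not taken as a pairing. Since each number holds 1 array of each group, a replicate block cannot move the log2 fold changes (0.98, 0.77 and -1.09 for NPG4, PMAP-36 and MMP9). Their staying the same is therefore no check. With the block the count of calls was 0.

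The adjusted p of the Spearman correlation of NPG4 and MMP9 rose above 0.05 with median scaling (-0.786), all probes of a gene averaged (-0.810), without the 2 arrays farthest from the median (-0.771), with group (-0.690) or slide (-0.667) means subtracted, and with NPG4 probe 2 (-0.738) or 3 (-0.524). With 1 array left out it ran from -0.929 to -0.821 and the same happened without pregnant replicate 2, 3 or 4 or non-pregnant replicate 3 or 4. The adjusted p of the Pearson correlation of NPG4 with the other neutrophil genes did so with median scaling (0.683), without the farthest arrays (0.250), with group (0.789) or slide (0.809) means subtracted and with NPG4 probe 2 (0.705) or 3 (0.788), and ran from 0.670 to 0.923 with 1 array left out, under 0.05 only without non-pregnant replicate 4; its rho ran from 0.393 to 0.929. NPG4 with PMAP-36 turned to r = -0.354 and rho = -0.143 without the farthest arrays. PMAP-36 with the other neutrophil genes turned to r = -0.209 and rho = -0.257 there, and with 1 array left out ran from -0.102 to 0.604 (r) and -0.286 to 0.321 (rho). PMAP-36 with MMP9 ran from -0.464 to 0.036 (rho) with 1 array left out, and had -0.667 with slide means subtracted. The causes were not tested. The PMAP-36 probe is close to background, and 4 sows per group leave changes of 2-fold mostly undetected.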
